A study of Bos taurus with 18 samples.

Results

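The proteasome is the protease that degrades proteins tagged with ubiquitin. Its barrel-shaped core particle is built from rings of alpha subunits (PSMA genes), which gate the entry, and rings of beta subunits (PSMB genes), some of which cut the substrate. A regulatory particle caps the barrel: its base holds a ring of ATPases (PSMC genes) that unfold the substrate, and its other subunits (most PSMD genes) bind and remove ubiquitin. Activators (PSME genes) are alternative caps, PSMF1 encodes an inhibitor, and the PSMG genes encode chaperones that help to assemble the core. In the cumulus, the layer of somatic cells around the oocyte, inhibitors of the proteasome block expansion of the layer in cultured pig oocyte complexes.

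The proteasome genes were chosen by name, as the probes of the bovine array whose platform symbol starts with PSM, a letter from A to G and a number. The rule found 79 of 43794 gene probes, which name 47 of 15216 genes. One of them, PSMC3IP, carries the name of a partner of PSMC3 but encodes a DNA recombination factor, and it is reported on its own, which leaves 46 genes of the complex. Of these 46, 44 were above background by the filter and were tested, among 11047 tested genes in all. PSMA8, an alpha subunit of the male germ line, and PSMB8, a catalytic subunit of the immunoproteasome, were not above background and have no value. PSMD13 and PSME3 were not analysed here, because no probe carries either symbol. The tested genes comprise 7 of 8 PSMA, 10 of 11 PSMB, 6 of 6 PSMC, 13 of 13 PSMD, 3 of 3 PSME, 1 of 1 PSMF and 4 of 4 PSMG genes on the array.

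The cumulus cells came from 6 commercial Holstein cows, 4 years old on average, over 24 collections by ovum pick-up. During the luteal phase every cow was given FSH, which makes follicles grow, as 6 injections of 40 mg spaced 12 h apart over 3 days. A pause without FSH (coasting) of 20, 44, 68 or 92 h followed. The labelled follicle diameter was 3 to 5 mm for 20 h, 6 to 8 mm for both 44 and 68 h, and above 8 mm for 92 h. Time and follicle size therefore cannot be told apart in any comparison with 20 or 92 h. Only 44 and 68 h shared a labelled diameter. On each of 18 two-colour arrays, RNA of 44, 68 or 92 h was hybridised against RNA of 20 h, with 3 replicates per time and both dye orientations for each replicate. All values below are log2 ratios of a coasted sample over 20 h, averaged over the dye orientations of a replicate and given as mean ± SD (n = 3) unless stated otherwise, so that a value of -1 is a halving of the signal.

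Between 44.4 and 68.7% of probes were above background in the Cy3 channel, and between 26.5 and 58.9% in the Cy5 channel. Across the 44 proteasome genes, the replicates correlated with r of 0.88, 0.33 and 0.26 at 92 h, 0.30, 0.80 and 0.27 at 68 h and -0.04, 0.03 and -0.07 at 44 h; these are descriptions across genes that share arrays. Of 19 markers of cumulus and granulosa cells 18 were above background, SLC38A3 being the exception. Their log2 ratios at 92 h ran from -1.77 (CYP11A1) to 2.63 (GATM, the 1 marker of this list past the threshold, limma adjusted p = 0.0389), with a median of -0.26 and CDH2 at 1.83. GDF9, ZP2 and ZP4 of the oocyte were among 8 of 17 oocyte markers not above background. The other 9 oocyte markers were above background and ran from -0.55 to 0.06 at 92 h. Their median was 0.007, with 3 of the 9 below 0. The labels do not say which animals each replicate holds, so p-values measure only the spread between these samples. The 92 h arrays lay on slides of their own, so slide and time cannot be told apart in comparisons of 92 h with 44 or 68 h.

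After 92 h of coasting, 37 of the 44 proteasome genes had a mean ratio below 0, and the median of the 44 was -0.29 against -0.00067 for all genes tested. The medians of the 44 genes in the replicates were -0.37, -0.43 and -0.03. Replicate 3 lay close to the level of all genes only after its dye orientations were averaged. Its arrays taken singly had medians of -0.17 (coasted sample in Cy3) and -0.13 (in Cy5), the highest of the 92 h arrays in each orientation. In replicates 1, 2 and 3, 35, 37 and 27 of the 44 genes were below 0. The shift was small per gene: 10 genes were at least 1.5-fold lower and 1 gene, PSMB10, was at least 1.5-fold higher. The shares of all genes past these fold changes were not counted. In bulk RNA, fewer cells of a type and less RNA per cell cannot be told apart.

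Only PSMA2 and PSMA6 fell past an adjusted p of 0.05 in the limma fit over all genes. These 2 of 44 genes stand against 2.32% of all genes tested past that threshold in either direction and 1.08% in the lower direction. At an unadjusted p under 0.05, 14 of the 44 genes were lower, against 8.25% of all genes, and 1 was higher, against 9.78%. All 3 replicates were below 0 for 20 of the 44 genes, against 22.5% of all genes, and above 0 for 2, PSMB10 and PSME4, against 23.5%. On all 6 arrays of 92 h, 15 of the 44 genes were below 0 and 0 were above. The share of all genes was not counted for this measure, so it cannot be set against the array.

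**Figure D1:**
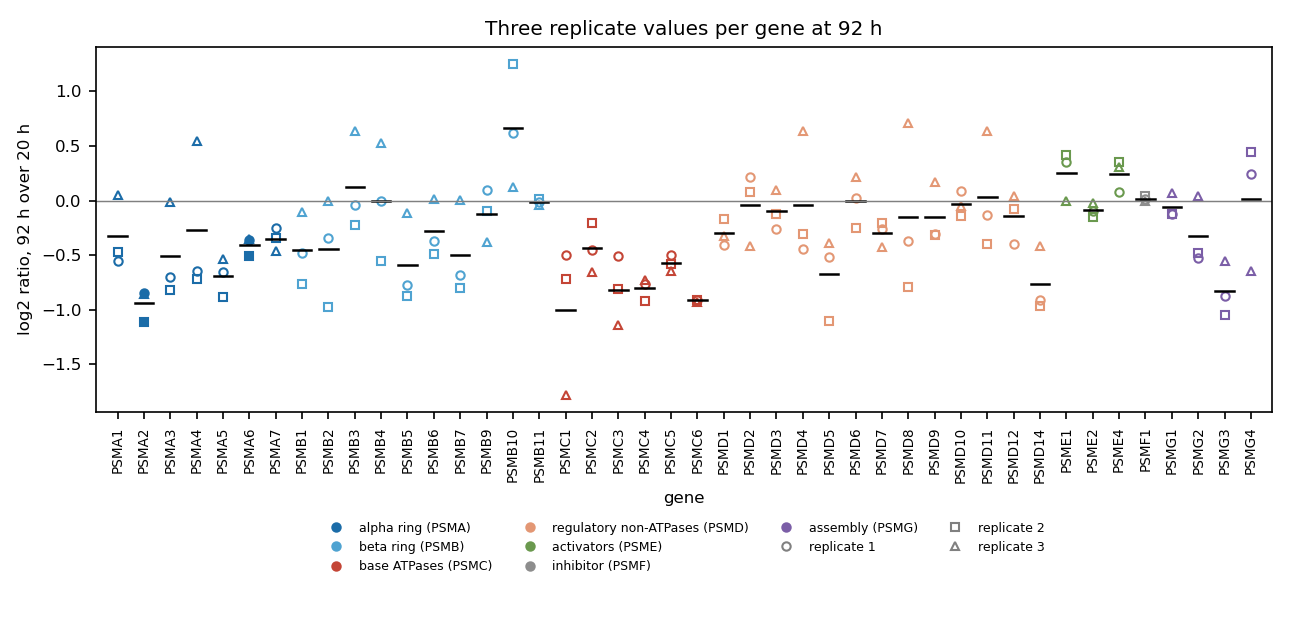
Log2 ratio of 92 h over 20 h (vertical axis) for each of the 44 proteasome genes (horizontal axis, coloured by part). Circles, squares and triangles are replicates 1, 2 and 3, black bars are means, and filled symbols mark PSMA2 and PSMA6, the genes past an adjusted p of 0.05. The base ATPases (red) lie below 0 in all 3 replicates, and PSMB10 has the highest mean.

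The alpha ring was low at 92 h. All 7 tested PSMA genes had means below 0, with a median of -0.40, and 5 of them were below 0 in all 3 replicates. PSMA2, an alpha subunit, measured -0.85, -1.11 and -0.86 in replicates 1, 2 and 3. On the brightest probe, which stands for the gene, all replicates were low and lay close to one another. The mean was -0.94 ± 0.15, which is 1.91-fold lower (limma adjusted p = 0.046). PSMA6, the other alpha subunit past the threshold, measured -0.36, -0.50 and -0.35, a mean of -0.40 ± 0.09, which is 1.32-fold lower (limma adjusted p = 0.020). The size of this fall was modest, and the spread was the narrower of the pair. PSMA4 had the highest mean of the ring at -0.27 ± 0.71, with -0.65 and -0.72 in replicates 1 and 2 and 0.54 in replicate 3. Its replicates thus disagreed in sign, as did those of PSMA1.

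The calls of both genes depended on the setting. PSMA2 stayed past the threshold in 9 of 22 alternatives and PSMA6 in 13 of 22, both with ratios below 0 throughout, and neither was called when any 1 of the 92 h replicates was left out. A fit that took replicate numbers as a block called PSMA2 alone of the 44, and 1.06% of all genes. Without 92 h replicate 1, 2 or 3, 0 of the 44 genes were called, against 0, 0.109 and 0.588% of all genes. Without 44 h replicate 2 or 3, whose spread enters the same fit, 6 and 5 genes were called at 92 h, against 4.76 and 4.51% of all genes, PSMA2, PSMA6, PSMC5 and PSMG3 among both. The largest adjusted p over the alternatives was 0.251 for PSMA2 and 0.141 for PSMA6. PSMA2 also differed by dye orientation: its mean was -1.40 with the coasted sample in Cy3 and -0.47 with it in Cy5, and it was below 0 on 6 of 6 arrays. For PSMA6 these means were -0.54 and -0.27, also with 6 of 6 arrays below 0.

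The base ATPases were low together. All 6 PSMC genes were below 0 in all 3 replicates at 92 h, with a median of -0.81 and single values between -1.78 and -0.21. None passed an adjusted p of 0.05. PSMC1, the lowest by mean of all 44 genes, measured -0.50, -0.72 and -1.78, a mean of -0.997 ± 0.69, with replicate 3 well below the others (limma adjusted p = 0.18). PSMC6 measured -0.91, -0.91 and -0.93, the tightest values of any gene at -0.91 ± 0.01. Its limma adjusted p was 0.24 in the fit, which pools the spread over the times, and PSMC6 spread widely at 44 and 68 h (SD 1.02 and 0.56). PSMC4 behaved alike, with -0.80 ± 0.10 at 92 h and an adjusted p of 0.20. With 92 h fitted from its own 3 values, PSMA2, PSMC4 and PSMC6 were called and PSMA6 was not, with 1.45% of all genes called. PSMC5 came closest to the threshold in this ring, at -0.58 ± 0.07 with all 6 arrays below 0 (limma adjusted p = 0.057), and PSMC2 was the highest of the ring at -0.44 ± 0.22.

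The beta ring was more mixed, with a median of -0.20 and 8 of 10 genes below 0. Of its catalytic subunits, PSMB5, which carries the chymotrypsin-like activity, measured -0.78, -0.87 and -0.11, a mean of -0.59 ± 0.42 and the lowest of the ring. PSMB7, which carries the trypsin-like activity, measured -0.68, -0.80 and 0.00, a mean of -0.49 ± 0.43. PSMB6, which carries the caspase-like activity, measured -0.37, -0.49 and 0.01, a mean of -0.28 ± 0.26. In all 3 of these genes replicates 1 and 2 were low and replicate 3 lay near 0, and their limma adjusted p-values were 0.54, 0.26 and 0.74.

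The tested immunoproteasome subunits lay near or above 0. Such subunits replace the constitutive catalytic ones in lymphoid cells and after interferon. PSMB10, which takes the place of PSMB7, measured 0.62, 1.25 and 0.12, a mean of 0.66 ± 0.57 and the highest of the 44 genes, and its second probe gave 0.62 ± 0.48. It did not pass the test (limma adjusted p = 0.51), and in the Cy5 orientation alone its replicate 3 was below 0 at -0.27. PSMB9, which takes the place of PSMB6, was near 0 at -0.12 ± 0.24 with replicates on both sides, and its probe was dim, being above background on 4 of 6 arrays at 44 h. IRF1, an interferon-response transcription factor, was at -0.07 ± 0.12.

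Leukocytes express these subunits, and 9 of 18 leukocyte markers were above background. CD3D, CD14, CSF1R, ITGAM, ITGB2, LYZ, TYROBP, LCP1 and CD48 were not, and the other 9 were tested. These 9 ran from -0.02 to 1.43 at 92 h, with a median of 0.16 and 2 of the 9 below 0. PTPRC, the general leukocyte surface marker, was at 0.05. CD68 rose by 0.93 and was the only leukocyte marker past the threshold, though not the highest. The mean linear ratio over the 9 markers lay between 1.12 and 1.60 in the 92 h replicates, between 1.04 and 1.09 at 68 h and between 1.00 and 1.07 at 44 h. For 10 tested theca and stroma markers, DCN not being above background, it lay between 1.21 and 2.20 at 92 h, with MYH11 and PDGFRA past the threshold, and between 0.98 and 1.15 at 68 h. For the 18 tested cumulus and granulosa markers it lay between 1.197 and 1.59 at 92 h, between 0.97 and 1.43 at 68 h and between 0.95 and 1.07 at 44 h. A linear mean weighs the highest markers most. At 92 h the median log2 ratio of the cumulus and granulosa markers was -0.26, with 13 of 18 below 0. The theca and stroma markers had a median of 0.02, with 5 of 10 below 0. The part of these markers in the proteasome values was not tested.

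The PSMD genes, which encode other subunits of the regulatory particle and some of its chaperones, shifted less. Their median was -0.14, with 12 of 13 below 0 at 92 h. Only 4 of the 13 were below 0 in all 3 replicates. PSMD14, the deubiquitinase of the complex, was the lowest at -0.91, -0.97 and -0.42, a mean of -0.76 ± 0.30 (limma adjusted p = 0.11). PSMD7, its partner in the lid, measured -0.26, -0.21 and -0.43, a mean of -0.30 ± 0.11 (limma adjusted p = 0.089). PSMD5, a chaperone that assembles the base, measured -0.51, -1.11 and -0.39, a mean of -0.67 ± 0.38 (limma adjusted p = 0.10). All replicates of these 3 genes were low, and none of the 3 passed the threshold. PSMD11, a lid subunit, was the highest PSMD gene at 0.04 ± 0.54, with -0.13 and -0.40 in replicates 1 and 2 and 0.64 in replicate 3. The chaperones PSMD9 and PSMD10 stood at -0.15 ± 0.28 and -0.03 ± 0.12.

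The activators lay around 0 rather than below it. PSME1, which forms the interferon-inducible cap with PSME2, measured 0.35, 0.41 and 0.00, a mean of 0.25 ± 0.23, and PSME2 was at -0.09 ± 0.06. The signs of both genes changed with the dye orientation: PSME1 was at -0.04 in the Cy3 and 0.55 in the Cy5 orientation, PSME2 at -0.39 and 0.21. PSME4, a large single-chain activator, measured 0.08, 0.35 and 0.31, a mean of 0.25 ± 0.14, and was the 1 gene higher at an unadjusted p under 0.05 (limma adjusted p = 0.20). Its second probe gave -0.01 ± 0.28. PSMF1, the inhibitor, was at 0.02 ± 0.02, and its other 2 probes above background each gave 0.13. All 3 probes were dim, so their ratios are compressed, and the probe used was the brightest of them.

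Of the 4 assembly chaperones, only PSMG3 was below 0 in all 3 replicates. It measured -0.88, -1.05 and -0.55 at 92 h, a mean of -0.82 ± 0.25, which is 1.77-fold lower, and stopped short of the threshold (limma adjusted p = 0.064). Its dimer partner PSMG4 stood at 0.01 ± 0.58, with 0.24, 0.44 and -0.65 in the replicates. The other chaperone pair, PSMG1 and PSMG2, stood at -0.06 ± 0.11 and -0.32 ± 0.32. In the authors' deposited value table, taken in place of the scanner values, PSMG3, PSMC5 and PSMD5 were called lower and PSMA2 and PSMA6 were not. Of all genes, 2.63% were called there.

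**Figure D2:**
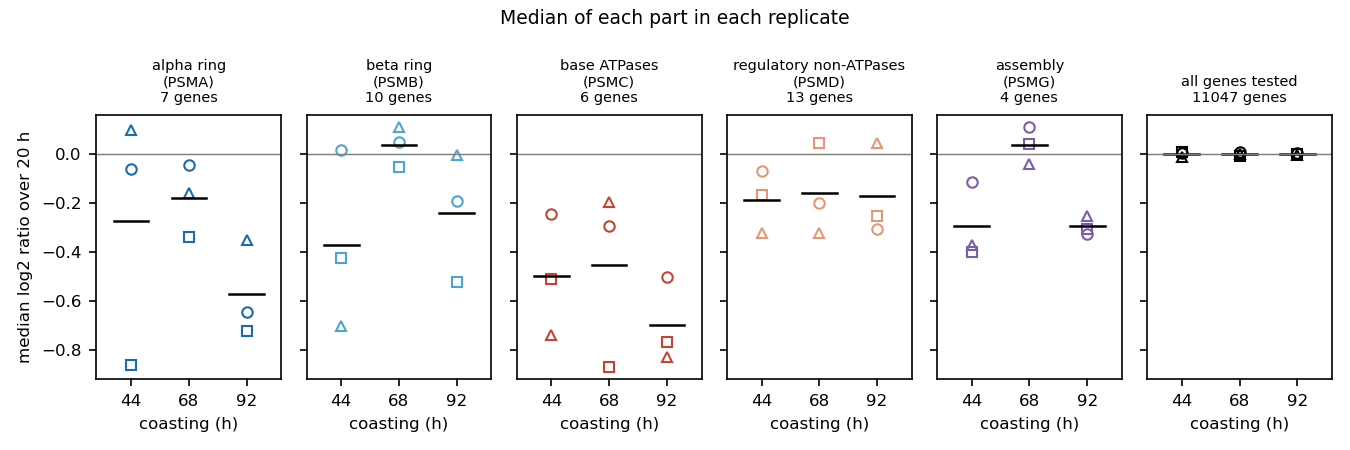
Median log2 ratio over 20 h (vertical axis) of each part of the proteasome in each replicate, by hours of coasting (horizontal axis). Circles, squares and triangles are replicates 1, 2 and 3, and bars are their means; parts of fewer than 4 genes are not drawn. The base ATPases are below 0 in all 9 replicates, and all genes tested stay at 0.

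Several probes tell how far a gene's value rests on 1 probe. Of the 44 genes 28 had 1 probe above background, and 16 had several. In 12 of the 16 all probes were below 0 at 92 h, in PSMB10 and PSMF1 all were above 0, and PSME4 and PSMG4 had probes of both signs. PSMA6 was alike on both probes (-0.40 ± 0.09 and -0.42 ± 0.22), and so was PSMC3 (-0.82 ± 0.32 and -0.86 ± 0.59). PSMA2 had 6 probes between -0.94 and -0.11, the brightest giving the lowest ratio. In 92 h replicate 3 the other PSMA2 probes ran from -0.39 to 0.19, on both sides of 0, against -0.86 on the brightest. The second probes of PSMC4 and PSMC6, at -0.02 ± 0.01 and -0.05 ± 0.15, did not show the fall of the first, and they were dim. PSMD2, a scaffold of the base, was at -0.04 ± 0.33 on the probe used and at -0.43 ± 0.42 on another.

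**Figure D3:**
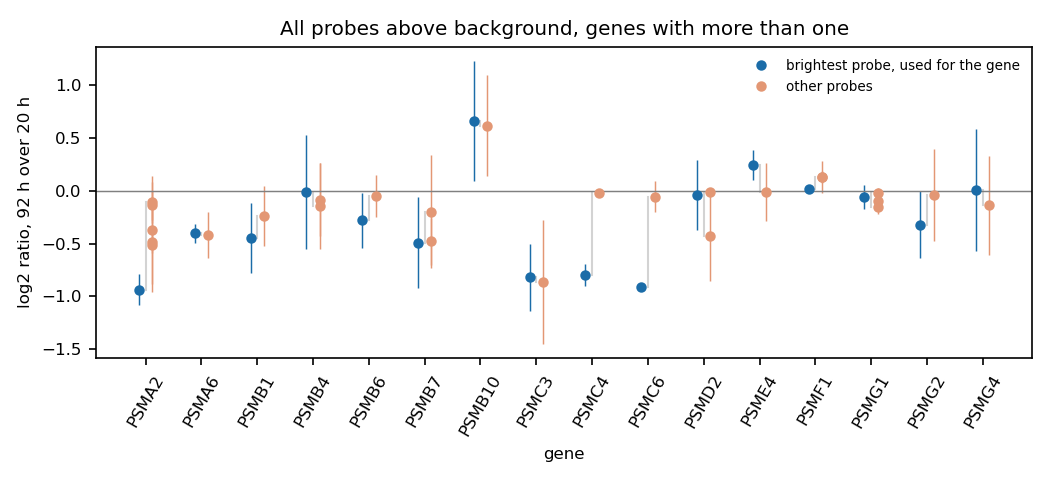
Log2 ratio of 92 h over 20 h (vertical axis, mean ± SD of 3 replicates) of every probe above background for the 16 proteasome genes with more than 1 such probe (horizontal axis). Blue points are the brightest probes, used for the gene, and orange points are the others. PSMA2 has 6 probes, all below 0 by mean, while PSMC4 and PSMC6 each have a second probe near 0.

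The group was low in both dye orientations. With the coasted sample in Cy3 the median of the 44 genes at 92 h was -0.30 and 33 genes were below 0; in Cy5 the median was again -0.30, with 35 below 0. Each orientation of 92 h was run on a slide of its own, so these are also the values within each slide, and dye and slide cannot be told apart. Single genes moved more: 16 of the 44 had means of opposite sign in the orientations, and 11 had means that differed by over 0.5. How many of all genes did so was not counted. PSMB2 measured 0.17 in Cy3 and -1.05 in Cy5, and PSMB4 0.46 and -0.48.

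**Figure D4:**
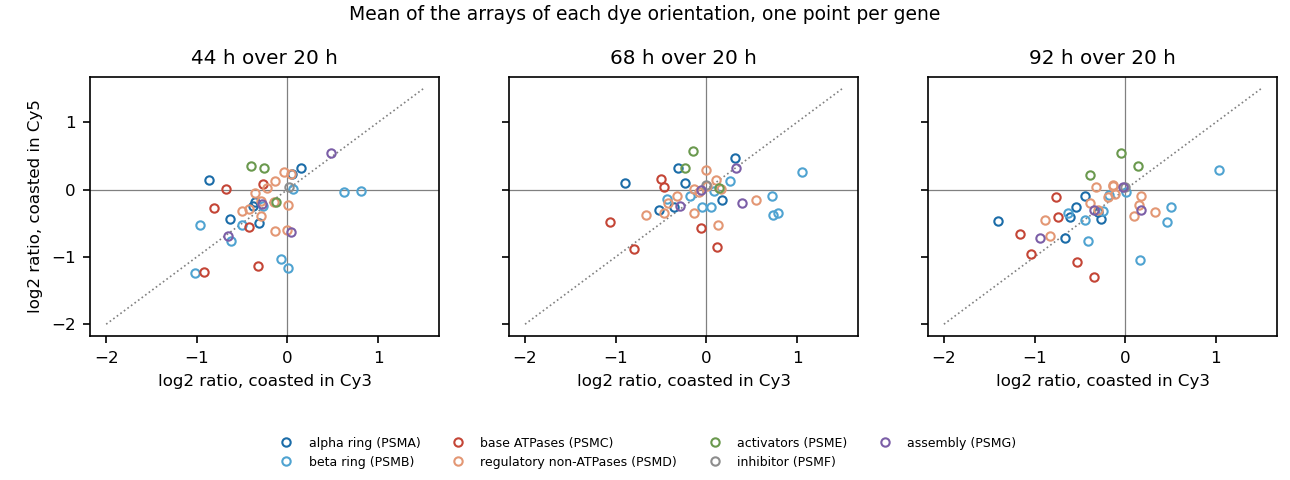
Mean log2 ratio over 20 h of each proteasome gene with coasted RNA labelled Cy3 (horizontal axis) or Cy5 (vertical axis), at 44, 68 and 92 h. Points are genes, coloured by part, each a mean of 3 arrays, and the dotted line marks equal values. At 92 h most points lie at the lower left, with 33 genes below 0 in Cy3 and 35 in Cy5, and genes far from the line differ between the orientations.

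At 68 h the proteasome genes as a group were near the level of 20 h. Their median was -0.06, against -0.0020 for all genes, with replicate medians of -0.03, -0.09 and -0.11, and 25 of 44 genes were below 0. The limma fit called 0 of the 44, and 0% of all genes. At an unadjusted p under 0.05, 4 of the 44 genes were lower, against 5.03% of all genes, and 0 were higher, against 5.98%. All 3 replicates were below 0 in 15 genes, against 21.1% of all genes, and above 0 in 8, against 21.8%.

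The base ATPases had 6 of 6 means below 0 at 68 h and a median of -0.34, while the beta ring had a median of 0.11. PSMC1 was the lowest gene at -0.84 ± 0.74 and PSMC6 followed at -0.77 ± 0.56, and replicate 2 was the lowest in both. PSMD7 had the smallest adjusted p, at -0.41 ± 0.19 (limma adjusted p = 0.15). PSMB10 was again the highest gene, at 0.66 ± 0.32 with all 3 replicates above 0. The 3 times share the 20 h condition as the denominator, so likeness between them is not independent evidence.

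At 44 h the median was -0.28, against -0.0033 for all genes, but the replicates did not resemble one another. The replicate medians were -0.07, -0.34 and -0.37, and 34 of 44 genes had means below 0. The weak likeness was not particular to these genes. Across all genes tested, the replicates correlated with r of 0.03, 0.18 and -0.18 at 44 h, against 0.68, 0.58 and 0.42 at 92 h. The limma fit called 0 of the 44, and 0% of all genes. At an unadjusted p under 0.05, 7 genes were lower, against 5.26% of all genes, and 1, PSMA6, was higher, against 4.31%. All 3 replicates were below 0 in 13 genes, against 12.9% of all genes, and above 0 in 2, against 12.7%. The smallest limma adjusted p of any proteasome gene was 0.28.

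The replicates spread most at 44 h. The median SD of the 44 genes was 0.46 at 44 h, 0.16 at 68 h and 0.26 at 92 h, and 18, 6 and 8 genes had an SD over 0.5. In 44 h replicate 3, PSMB5 measured -2.51, PSMC3 -2.44 and PSMB6 -1.80, far below the other replicates of each. In 44 h replicate 2, PSMG4 measured 2.19 and PSMB10 1.78, far above the others. Both dye orientations gave these extremes, PSMB5 in replicate 3 measuring -2.38 in Cy3 and -2.64 in Cy5. PSMD7 was the steadiest low gene at this time, at -0.36 ± 0.05.

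**Figure D5:**
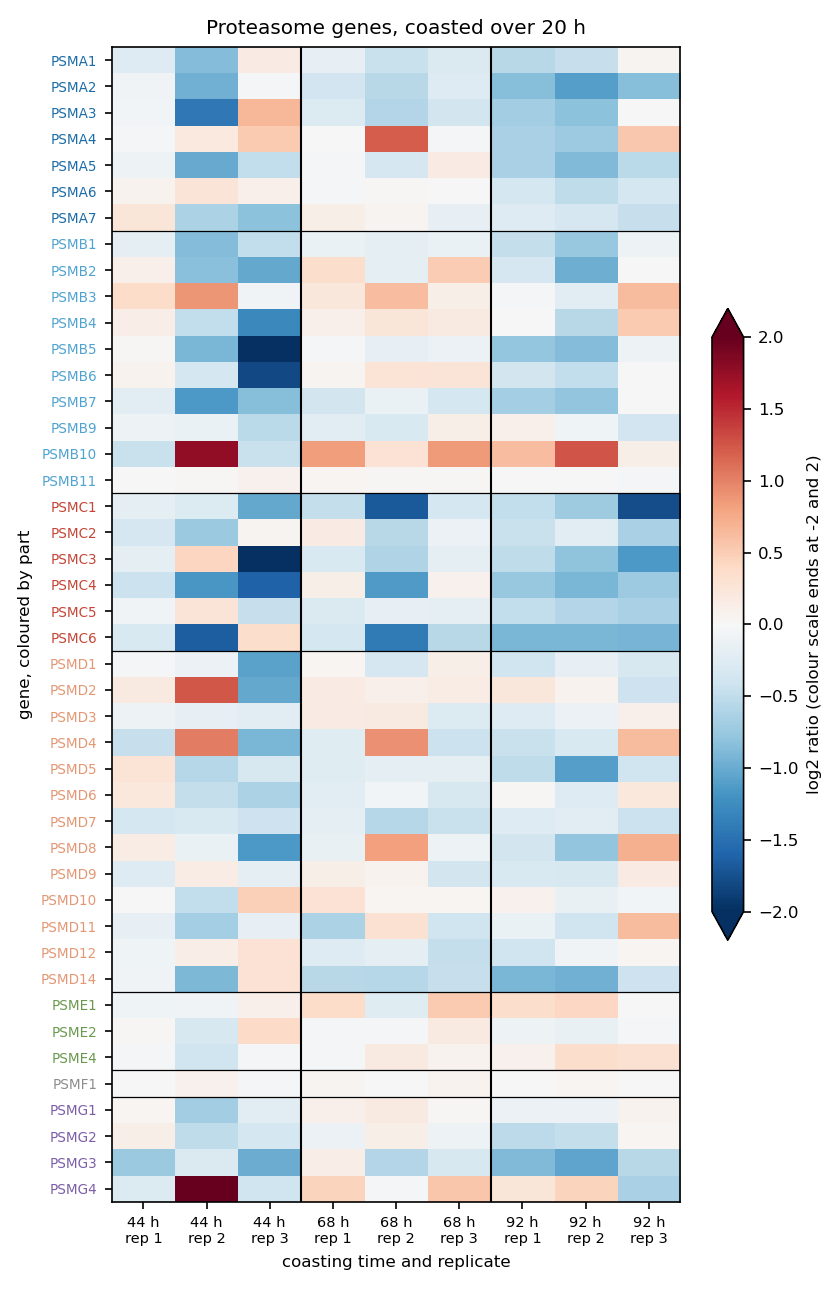
Log2 ratio over 20 h (colour, blue lower and red higher, with the scale ending at -2 and 2) of the 44 proteasome genes (rows, grouped and coloured by part) in the 9 replicates (columns). PSMB5 and PSMC3 in 44 h replicate 3 and PSMG4 in 44 h replicate 2 lie beyond the scale. The columns of 92 h replicates 1 and 2 are mostly blue, replicate 3 less so, and the columns of 44 h differ from one another.

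No proteasome gene differed past the threshold between the longer times, which were compared through the 20 h RNA. For 92 over 68 h the limma fit called 0 of the 44 genes (0% of all genes); at an unadjusted p under 0.05, 2 genes were lower, against 5.94% of all genes in either direction. For 92 over 44 h it called 0 (0% of all genes); 2 genes were lower and 1 higher without adjustment, against 7.76%. For 68 over 44 h it called 0 (0% of all genes), with 1 gene lower without adjustment, against 5.4%. The medians of the 44 differences were -0.19, -0.02 and 0.14. On the slides that 44 and 68 h shared, the median ratio of the 44 genes was -0.11 in the 1 replicate of 68 h (replicate 3) and -0.07, -0.34 and -0.37 in those of 44 h. The smallest adjusted p of the 3 comparisons was 0.127, for PSMA6 at 92 against 44 h.

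The genes that work with the proteasome were read from a list of 36, of which 27 were on the array by name and all 27 were tested. The limma fit called 0 of them at any time. At 92 h their median was -0.15, with 20 of 27 below 0, and 3 were lower and 2 higher at an unadjusted p under 0.05, against 8.25 and 9.78% of all genes. Their medians were 0.01 at 68 h and -0.10 at 44 h.

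POMP, the chaperone that completes the core, was at -0.44, -0.35 and -0.41, a mean of -0.40 ± 0.05 (limma adjusted p = 0.25). SEM1, a small lid subunit, was the lowest of the assembly and intrinsic subunits at -0.54 ± 0.48, and AKIRIN2, which brings proteasomes into the nucleus, was the highest at 0.36 ± 0.29. Both had adjusted p-values above the threshold (0.57 and 0.21). Of the proteins that bind the proteasome, UBE3C, a ubiquitin ligase, was lowest at -0.39 ± 0.44 and ZFAND5, a ubiquitin-binding activator, highest at 0.68 ± 0.39. VCP, the ATPase that extracts ubiquitinated proteins, measured -0.63, -1.34 and -1.21, a mean of -1.06 ± 0.37 and the largest shift of the list, without passing the test (limma adjusted p = 0.32). Its cofactor UFD1 was the highest of its role at 0.14 ± 0.23. The ubiquitin-activating enzymes UBA1 and UBA6 stood at -0.15 ± 0.09 and -0.18 ± 0.16. Of the transcription factors, NFE2L1, which induces proteasome genes when the proteasome is inhibited, was highest at 0.28 ± 0.34, and NFE2L2, the regulator of the oxidative stress response, was lowest at -0.40 ± 0.12.

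PSMC3IP, the recombination factor that the naming rule also takes in, measured -0.46 ± 0.34 at 92 h (limma adjusted p = 0.32), -0.03 ± 0.26 at 68 h and -0.33 ± 0.55 at 44 h.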

How the data were processed

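Per the labels' protocols, total RNA of cumulus cells went through 2 rounds of amplification before chemical coupling of Cy3 or Cy5 and hybridisation on Agilent slides. The deposited scanner tables hold, per the file headers, a mean foreground and a mean background intensity per spot and channel, without normalization. The authors also deposited a value table of log2 ratios, which followed Cy5 over Cy3 of the same arrays with r from 0.684 to 0.863, slopes from 0.935 to 1.24 and column medians from -0.036 to 0.0225; its background correction and normalization stay unknown, and it served as an alternative. How the slides were scanned and what software the authors used is not given in the sources.

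Background was corrected here with normexp (offset 50) and each array normalized by loess with limma 3.58.1 in R 4.3.3. Loess hides a shift shared by most genes, and dim probes have compressed ratios. Same-numbered arrays of opposite dye were taken as a technical dye swap and averaged, which the labels imply but do not say. A probe was kept when its signal exceeded the mean plus 2 SD of 153 negative controls in at least 1 coasting time on at least 50% of its arrays (27391 of 43794 probes). The brightest kept probe stood for a gene. The median raw intensity of an array lay between 128.3 and 310.6 for Cy3 and between 100.8 and 256 for Cy5. Precision is limited by how many arrays there are. Of the gene probes 21790 had 1 symbol in the platform annotation, 22004 none and 0 several.

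The 9 replicate values were fitted with lmFit and eBayes, 1 coefficient per time (6 residual and 1.13 prior degrees of freedom), two-sided, with Benjamini-Hochberg adjustment over 11047 genes and a threshold of 0.05. Values of different times may share their 20 h RNA, and the fit took them as independent. Fits were tested on simulated data.

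The members and lists were chosen with earlier results of these data known. Genes named are those past the threshold, the highest and lowest of each part at 92 h, the catalytic and immunoproteasome subunits, activators, inhibitor and assembly genes, genes whose probes disagree in sign and, of the pathway list, the extremes of each role; PSMA1, PSMB2, PSMB4, PSMB11, PSMC3, PSMC4, PSMC5, PSMC6, PSMD2, PSMD3, PSMD5, PSMD7, PSMD9, PSMD10 and POMP were named after their values were seen. Same-numbered values of 92 and 44 h deviated together across genes (r of 0.356, 0.259 and 0.235), and those of pairs with 68 h did not (-0.346 to -0.031). Alternatives covered background, normalization, filter, probe, dye, prior, block, slide, samples in the fit and each left-out replicate.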

Additional observations from a re-analysis of the deposited data

Results flagged for a closer look

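On the probe used for the gene, PSMA6 differed in sign between times. Its 3 replicates at 92 h lay between -0.50 and -0.35 on the log2 scale, and its 3 replicates at 44 h between 0.07 and 0.26. The difference of 92 minus 44 h was -0.54 and did not pass the test (limma adjusted p = 0.127). The second PSMA6 probe did not keep one sign at 44 h, measuring 0.09, -0.31 and 0.09.

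PSME4 differed the other way on the probe used. Its replicates lay between 0.08 and 0.35 at 92 h and between -0.40 and -0.03 at 44 h, a difference of 0.40 on the log2 scale (limma adjusted p = 0.473). The second PSME4 probe did not show this. It measured -0.16, 0.31 and -0.18 at 92 h and -0.51, -0.36 and 0.42 at 44 h.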

How the results depend on the processing

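The median of the 44 proteasome genes stayed below 0 at each time under every alternative tried. At 92 h it ranged from -0.39 to -0.19, and at 44 h median centring moved it from -0.28 to -0.45, where the median of all genes was -0.045; the cause was not tested. The number of genes called at 92 h was 2 as reported (2.32% of all genes, the share given in brackets throughout). The count was 0 with median centring (0.616%) and with a trended, robust prior (0%). It was 1 without a filter on dim probes (1.18%), with a strict filter (5.52%) and with the mean of a gene's probes (2.19%). Cy5 alone also gave 1 (3.26%), as did the replicate block (PSMA2, 1.06%). The count was 3 without background correction (4.15%) and with local background subtracted (4.27%). It was also 3 with the deposited table (2.63%) and with each time fitted alone (1.45%). Cy3 alone gave 8 (13.5%). Leaving out 1 replicate gave from 0 to 6 genes. It gave 0 without 92 h replicate 1, 2 or 3 (0, 0.109 and 0.588%). It gave 1 without 68 h replicate 1, 2 or 3 (0.923, 2.58 and 0.86%) and without 44 h replicate 1 (1.54%). Without 44 h replicate 2 it gave 6 (4.76%), and without 44 h replicate 3 it gave 5 (4.51%). Slide as a random block counts the 18 arrays singly, and its consensus correlation was -0.239; it called 26 genes at 92 h, 20 at 68 h and 31 at 44 h, against 40.7, 44.8 and 37.8% of all genes, and 11, 12 and 17 for 92 over 68 h, 92 over 44 h and 68 over 44 h, against 21.1, 29.9 and 23.3%. With Cy3 alone 5 genes were called at 68 h, against 16.5% of all genes. The replicate block changed no other count of calls, and a block for 92 and 44 h alone, chosen after seeing the data, called 0. Among all genes, the calls at 92 h were 53.5% higher as reported, 19.1% with median centring, 41% with the replicate block and 31.2% with each time fitted alone. At 92 h, over the 44 tested proteasome genes and all alternatives that held them, 857 values kept their side of the threshold. Another 44 gained it, 22 lost it, 39 changed sign without a call and 0 reversed a called sign. Values of dim probes (PSMB9, PSMB11, PSMD3, PSMF1, PSMG3) are limited by their signal over background.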
